A study of Mus musculus with 2 samples.

Results

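Mir144, Mir451a and Mir486 are the miRNA genes best known from red blood cell precursors, and their levels were measured in mouse fetal liver at embryonic day 15.5. They were chosen by name, and all 3 were found among the 1973 miRNA genes of the deposited tables. Small RNA of under 30 nucleotides, taken from total RNA, was sequenced from 2 libraries of liver from male and female B6NCrl embryos, pooled. Replicate 1 came from a pool of 78 embryos and replicate 2 from a pool of 62. Both libraries belong to the same group, so no condition was compared, and the spread between them is that of pools and library making, not of single animals. The sense counts over all miRNA genes, meaning reads on the gene's own strand, came to 5529166 in replicate 1 and 3169882 in replicate 2. Levels are given as CPM, counts per 1000000 of that total. A read spans a whole mature miRNA, so counts were not divided by precursor length. The labelled tissue matched its defining hepatocyte miRNA: Mir122 was the most abundant gene, at 182337 CPM in replicate 1 and at 168741 CPM in replicate 2.

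At this stage the fetal liver is the main site of red cell formation. Mir144 and Mir451a are made from a shared primary transcript that the erythroid factor GATA1 switches on. Most miRNA precursors are cut by Dicer, but the short hairpin of Mir451a is cut by Argonaute 2, which leaves a mature miRNA that runs from the stem into the loop. In mouse red cells miR-451a holds down the 14-3-3 zeta protein and protects against oxidant stress, and in zebrafish miR-144 limits klfd and embryonic alpha-globin. Mir486 lies in Ank1, which encodes the ankyrin of the red cell membrane skeleton, and miR-486 is also abundant in striated muscle.

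The mature sequences are shown because each seed, bases 2 to 8, largely sets which targets a miRNA recognises. They come from RefSeq on GRCm38.p6, which holds 2 of the 3 genes, and the seed is in capitals. The table has no entry for Mir486.
miR-144-5p: gGAUAUCAucauauacuguaagu
miR-144-3p: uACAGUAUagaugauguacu
miR-451a: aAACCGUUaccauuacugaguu
miR-101a-3p: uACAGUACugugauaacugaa
None of these 4 seeds occurs in a second mature miRNA among the 1738 in the table, so Mir144 and Mir451a share no seed with each other. Over bases 2 to 7 miR-144-3p matched 1 other miRNA, miR-101a-3p, whose gene Mir101a stood at 94.8 CPM in replicate 1 and at 103 CPM in replicate 2, below Mir144. The related miR-101b-3p (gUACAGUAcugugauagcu, shown because it holds the same 6 bases shifted by 1 position) comes from Mir101b, which stood at 6871 CPM in replicate 1 and at 6293 CPM in replicate 2, nearer to Mir144. miR-144-3p has 20 bases with 30.0% G or C, and miR-451a has 22 bases with 36.4%, against medians of 22 bases and 52.2% over all mature sequences in the table.

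The hairpins are shown because the precursors differ in shape, with the mature miRNAs in capitals.
Mir144: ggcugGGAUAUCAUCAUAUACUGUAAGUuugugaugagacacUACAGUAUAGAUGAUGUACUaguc
Mir451a: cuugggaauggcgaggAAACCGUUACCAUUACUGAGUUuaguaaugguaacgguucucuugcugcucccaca
Mir451b: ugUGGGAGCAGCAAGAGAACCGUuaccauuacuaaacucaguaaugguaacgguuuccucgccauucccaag
Counting A-U and G-C pairs only, and no G-U pairs, the Mir451a hairpin of 72 bases holds an unbroken stem of 16 base pairs closed by a loop of 6 bases. Its mature miRNA covers all 16 bases of the 5′ side of that stem and 5 of the 6 loop bases. In the Mir144 hairpin of 66 bases the longest unbroken stem, counted in the same way, has 9 base pairs, and a mature miRNA is annotated on each arm. The deposited tables count reads per precursor, so these arms could not be told apart. Mir451b is read from the opposite strand of the same bases, and its hairpin is the exact reverse complement of that of Mir451a.

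Mir144 (ENSMUSG00000065401.1) lies on the plus strand at chr11:78073005-78073070, GRCm38, and Mir451a (ENSMUSG00000070065.1) follows 99 bases downstream at chr11:78073170-78073241. Both lie outside protein-coding genes in annotation release M21. The nearest are Flot2, which ends 12570 bases before Mir144, and Eral1, on the minus strand, whose 3′ end lies 134 bases after Mir451a. Mir486 (ENSMUSG00000070084.3) lies on the plus strand at chr8:23142555-23142682, on another chromosome. All 15 Ank1 transcripts that span it do so with an intron. Mir3107 lies on the minus strand within the same bases, and the antisense gene Gm15816 spans both.

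Mir451a was the most abundant of the erythroid genes in replicate 1, but not in replicate 2. It had 103164 sense counts in replicate 1, a level of 18658 CPM, and 28032 sense counts in replicate 2, a level of 8843 CPM. Its mean was 13751 ± 6940 CPM (SD, n = 2), so the SD was 50.5% of the mean. It was the 12th most abundant miRNA gene in replicate 1 and the 31st in replicate 2. Its share of all sense counts was 1.87% in replicate 1, with an exact Clopper-Pearson 95% interval of 1.85 to 1.88%, and 0.884% in replicate 2, with an interval of 0.874 to 0.895%. These intervals cover counting error of reads only. PCR copies of reads are not independent molecules, so the intervals may be too narrow for molecules. In bulk tissue, fewer cells of a type and less RNA per cell cannot be told apart.

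Mir144 differed far less between the libraries and in the other direction. It had 43000 sense counts in replicate 1, a level of 7777 CPM, and 28268 in replicate 2, a level of 8918 CPM. Its mean was 8347 ± 807 CPM (SD, n = 2), an SD of 9.66% of the mean. It ranked 33rd in replicate 1 and 30th in replicate 2.

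By counted reads Mir486 was the lowest of the erythroid genes in both libraries. It had 3951 sense counts in replicate 1, a level of 715 CPM, and 2594 in replicate 2, a level of 818 CPM. Its mean was 766 ± 73.4 CPM (SD, n = 2), an SD of 9.57% of the mean, close to that of Mir144. It ranked 103rd in replicate 1 and 96th in replicate 2. The mature miRNAs of Mir486 and Mir3107 are near-identical, and the gene counts hold no reads with several mapping places. The level of Mir486 is therefore uncertain and may be too low.

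**Figure D1:**
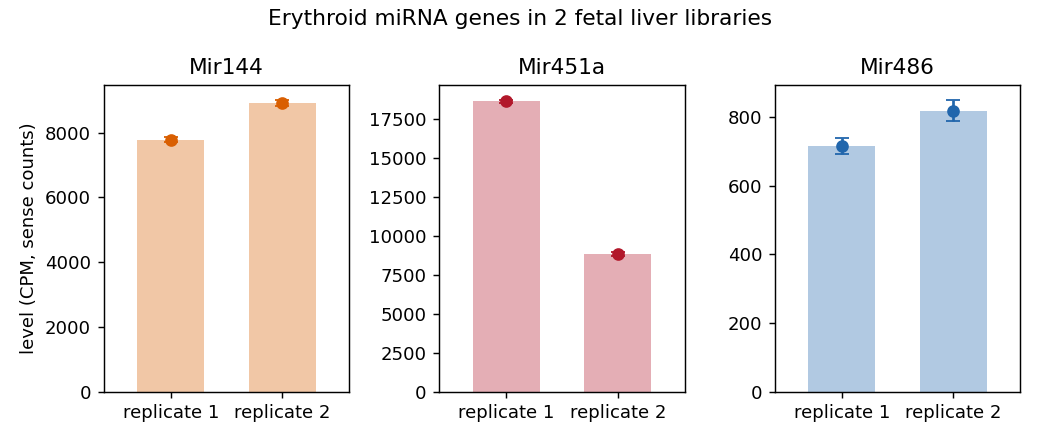
Level in CPM of Mir144, Mir451a and Mir486 (1 panel each, vertical axes differ and start at 0) in replicates 1 and 2. Bars and points show the level and error bars the exact 95% interval of counting error. Mir451a is at 18658 CPM in replicate 1 and at 8843 CPM in replicate 2, while Mir144 and Mir486 are slightly lower in replicate 1.

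In the order of mean levels Mir451a stood 21st, Mir144 33rd and Mir486 99th of 1973 genes. Directly above Mir451a stood Mir93 at 15527 ± 447 CPM and Mir20a at 14842 ± 1029 CPM, and directly below it Mir22 at 13468 ± 434 CPM and Mir431 at 13224 ± 942 CPM (SD, n = 2 each). All 4 lay between the values of Mir451a in the 2 libraries, so its place among them is not fixed by these data. Around Mir144 stood Mir382 at 8528 ± 24.6 CPM, Mir652 at 8476 ± 653 CPM, Mir106b at 7789 ± 319 CPM and Mirlet7d at 7180 ± 42.7 CPM. Of these 4, only Mirlet7d did not overlap Mir144 in its range over the 2 libraries. Mir486 overlapped in this way with Mir467d, Mir374b, Mir28a and Mir25, whose means ran from 800 to 754 CPM.

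**Figure D2:**
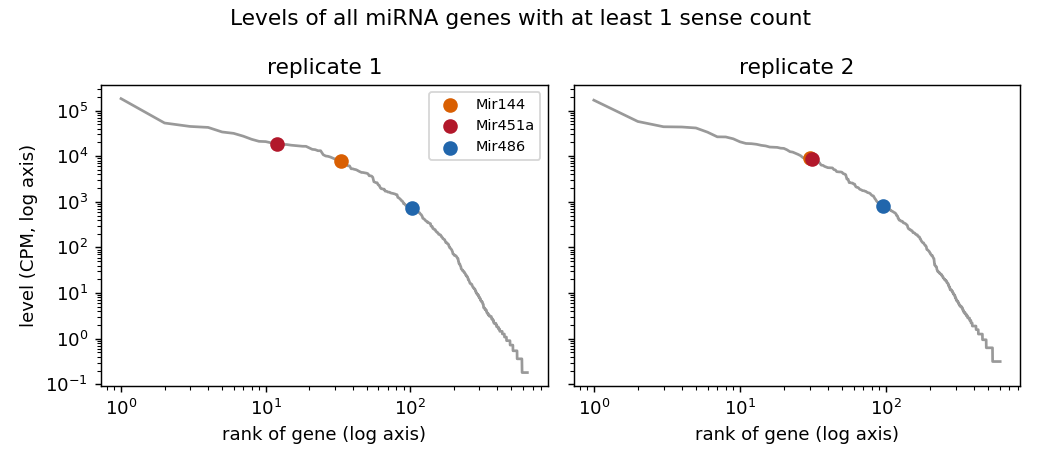
Level in CPM against rank for every miRNA gene with at least 1 sense count, in replicate 1 (left) and replicate 2 (right), both axes logarithmic. The grey line is all genes and the coloured points are the erythroid genes. Mir451a is at rank 12 in replicate 1 and next to Mir144, at ranks 31 and 30, in replicate 2.

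Each gene was compared between the libraries by an exact binomial test, which asks whether the reads of these 2 libraries differ beyond counting error and says nothing about a condition. At this depth 176 of 456 genes tested passed it, or 38.6%, and among the 187 genes that averaged 100 CPM or more 61.0% did, so passing it is common. All 3 erythroid genes passed. On library sizes scaled by TMM, a method of edgeR, Mir451a was 2.13-fold higher in replicate 1 than in replicate 2, a log2 ratio of 1.09 (95% interval 1.07 to 1.11), and its adjusted p was too small for the program to represent. Mir144 was lower in replicate 1, with a log2 ratio of -0.18 (-0.21 to -0.16, exact binomial test, Benjamini-Hochberg adjusted p = 9.27e-60). Mir486 was lower in replicate 1 by the same size, with a log2 ratio of -0.18 (-0.25 to -0.11, adjusted p = 3.99e-06 by the exact test).

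Among these 187 genes Mir451a had the largest log2 ratio in size and the only one above 1 or below -1. The other 186 genes had an SD of 0.19 on the log2 scale and ran from -0.86 for Mir206 to 0.63 for Mir203. They included Mir144 and Mir486, whose ratios of -0.18 each were only just inside 1 SD. Of the 187 genes, 22 had a lower ratio than Mir144 and 24 a lower ratio than Mir486. As an alternative, edgeR's exact test took the common spread of all genes between the libraries, a coefficient of variation of 14.7%, as its error. That spread comes from the same 2 libraries that are compared, so no independent replicate stands behind its p. It passed 5 of 456 genes (1.10%), and Mir451a was among them (adjusted p = 0.0371 by edgeR's exact test), while Mir144 and Mir486 were not (adjusted p = 1.0 each). The other genes that it passed, named after their values were seen, were Mir802, Mir205, Mir3474 and Mir133b.

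**Figure D3:**
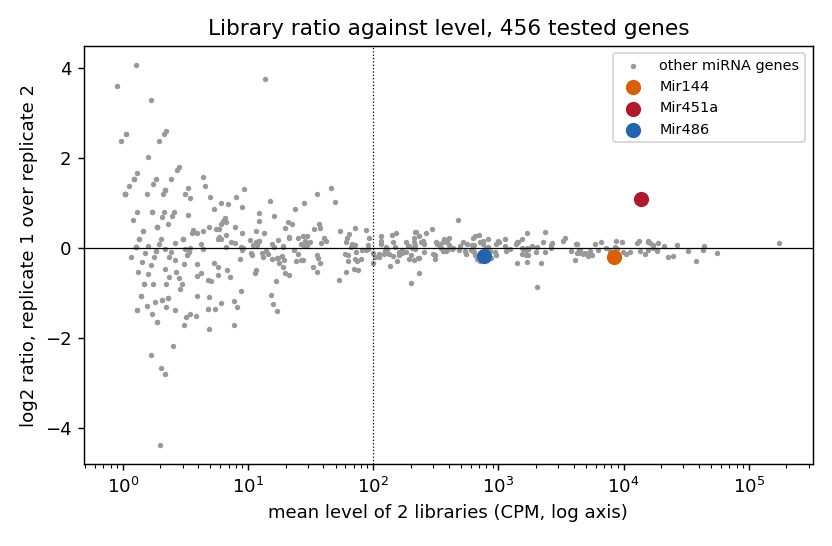
Log2 ratio of replicate 1 over replicate 2 against the mean level in CPM (log axis) for the 456 genes tested, with the erythroid genes in colour and a dotted line at 100 CPM. Mir451a lies at 1.09, above all others to the right of the dotted line, while Mir144 and Mir486 lie together at -0.18.

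The difference at Mir451a changed the make-up of the erythroid counts. The 3 genes together held 2.71% of sense counts in replicate 1 and 1.86% in replicate 2, while Mir144 and Mir486 alone held 0.849% in replicate 1 and 0.974% in replicate 2. Of the summed erythroid counts, Mir451a made up 68.7% in replicate 1 and 47.6% in replicate 2. Mir144 made up 28.6% in replicate 1 and 48.0% in replicate 2, and Mir486 2.63% in replicate 1 and 4.40% in replicate 2. The sum therefore took its direction between the libraries from Mir451a, and the other members ran the opposite way. All these shares hold for the counted reads only. They leave out reads with several mapping places and so may understate Mir486.

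**Figure D4:**
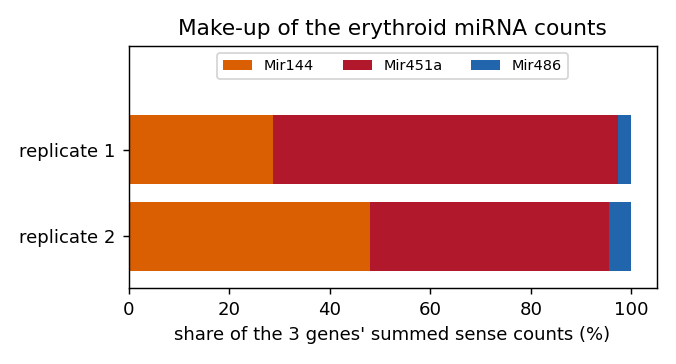
Share of the summed sense counts of Mir144, Mir451a and Mir486 taken by each gene, in percent, for replicate 1 (top) and replicate 2 (bottom). Mir451a takes 68.7% in replicate 1 and 47.6% in replicate 2, where it is about level with Mir144 at 48.0%. The part of Mir486 may be too low, since reads with several mapping places were not counted.

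Ratios between members do not depend on library scaling. There were 2.40 Mir451a counts for each Mir144 count in replicate 1 and 0.992 in replicate 2. The ratio was 2.42 times as high in replicate 1 (Wald 95% interval 2.37 to 2.47, counting error only), and the p of a two-sided Fisher's exact test was too small for the program to represent. Mir451a stood at 26.1 counts for each Mir486 count in replicate 1 and 10.8 in replicate 2, again 2.42 times as high in replicate 1 (interval 2.30 to 2.54, Fisher's exact p = 1.60e-231). Mir144 and Mir486 kept nearly the same proportion, with 10.88 Mir144 counts for each Mir486 count in replicate 1 and 10.90 in replicate 2. That ratio was 0.999 times as high in replicate 1 (interval 0.948 to 1.05, Fisher's exact p = 0.968). Mir144 and Mir486 lie on different chromosomes, whereas Mir144 and Mir451a are neighbours. Since reads with several mapping places were not counted, the numbers of counts for each Mir486 count may be too high.

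Other neighbouring miRNA genes kept their proportions far more closely than Mir144 and Mir451a did. There were 57 pairs of neighbours on the same strand within 10 kb that both averaged 100 CPM or more. The log2 ratio within a pair differed between the libraries by 1.27 for Mir144 and Mir451a, the largest of the 57. The other 56 pairs had a median difference of 0.11 in size and a highest of 0.34, for Mir679 and Mir1193 of chromosome 12. The next were Mirlet7d with Mirlet7a-1 at 0.28, followed by Mir377 with Mir541 at 0.27. No test was made over pairs, which share clusters and genes.

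**Figure D5:**
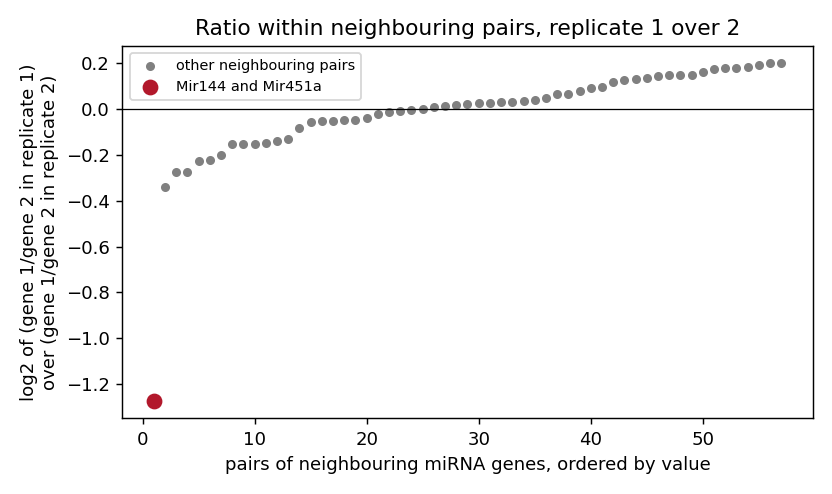
Difference between libraries in the log2 ratio within each of 57 pairs of neighbouring miRNA genes (the gene with the lower coordinate over the other, replicate 1 over replicate 2), ordered by value. The pair of Mir144 and Mir451a lies at -1.27, and the other 56 pairs lie within 0.34 of 0.

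Genes with the most similar ratio between the libraries were looked up among those averaging 100 CPM or more, as the absolute difference of log2 ratios over 2 libraries. For Mir144 they were Mir574, Mir675 and Mir486, all within 0.002 of it. For Mir486 they were Mir675, Mir144 and Mir574. For Mir451a the nearest were Mir203 at a log2 ratio of 0.63, Mir182 at 0.43 and Mir145a at 0.37, so no gene came within 0.4 of it. With 2 libraries many genes have nearly the same ratio, so this likeness is weak.

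On the opposite strand Mir486 had reads and the chromosome 11 pair had almost none. Mir486 had 347 opposite-strand counts in replicate 1 and 203 in replicate 2, which match the position of Mir3107. They were 8.07% of its reads in replicate 1 (exact interval 7.28 to 8.93%), and they made up 7.26% in replicate 2 (6.32 to 8.28%). These shares did not differ past the threshold (Fisher's exact test, two-sided, p = 0.220, odds ratio 1.12). Given to Mir3107, these counts put it at 57.3 CPM in replicate 1 and at 58.2 CPM in replicate 2 of totals that include opposite-strand counts, and Mir3107 ranked 219th in both. Reads with several mapping places were not counted, so the strand shares and the level of Mir3107 are uncertain, like the level of Mir486. Opposite to Mir451a, where Mir451b lies, there was 1 count in replicate 1 and 0 in replicate 2, which allows up to 3 counts. Opposite to Mir144 there were 2 counts in replicate 1 and 0 in replicate 2. Of 352 genes that reached 10 counts in each library, 319 had 0 opposite-strand counts and 4 had a larger opposite share than Mir486. An annotated miRNA gene lies on the other strand of 14 of these 352, and 3 of the 14 had a larger opposite share than Mir486. Over all miRNA genes together the opposite share was 8.77% in replicate 1 and 9.12% in replicate 2, above that of Mir486.

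Of 15 other miRNA genes linked to red cell formation, 13 were found in the tables by symbol and all 13 were detected, while Mir24-1 and Mir191 were not found and are not analysed here. Together they held 4.95% of sense counts in replicate 1 and 4.85% in replicate 2. By the exact binomial test 3 of 13 were higher in replicate 1, against 18.9% of all genes tested, and 2 of 13 were lower in replicate 1, against 19.7% of all. Their median log2 ratio was -0.02, against 0.02 over all genes tested. Those higher in replicate 1 were Mir223, known from granulocyte development (log2 ratio 0.11), and the clustered genes Mir23a (log2 ratio 0.12) and Mir27a (0.17). Those lower in replicate 1 were Mir15a (-0.09) and Mir16-1 (-0.10), neighbours whose miRNAs repress Myb in human erythroid cells. All 5 ratios were inside 1 SD of the genes at 100 CPM or more, and none came near that of Mir451a.

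The remaining 8 did not pass. Mir221 and Mir222, which repress the stem cell factor receptor Kit in human erythroid progenitors, stood at 348 and 163 CPM in replicate 1 and at 350 and 178 CPM in replicate 2. Mir210 stood at 621 CPM in replicate 1 and at 666 CPM in replicate 2. Mir150, a lymphocyte miRNA that represses Myb, was the lowest at 19.4 CPM in replicate 1 and at 18.9 CPM in replicate 2. In mean level Mir451a was above all of these genes but Mir223, and Mir144 was below Mir223, Mir23a and Mir15a and above the rest. Reads with several mapping places were not counted, so this order holds for the counted reads only. The place of Mir451a rests on replicate 1, since in replicate 2 its 8843 CPM lay below Mir23a at 12255 CPM and Mir15a at 10267 CPM as well.

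Markers of other cell types are given beside the ratio of Mir451a, with their calls by the exact binomial test, in which 18.9% of all genes tested were higher in replicate 1 and 19.7% lower. All 7 of 7 hepatocyte genes were higher in replicate 1, and their summed share was 19.6% in replicate 1 and 18.1% in replicate 2. Within this list Mir802 differed by more than Mir451a, at 25.3 CPM in replicate 1 and at 1.89 CPM in replicate 2, where it rested on 6 counts. Of the leukocyte list 5 of 6 genes were found in the tables by symbol, of which 3 were higher in replicate 1 and 0 lower, and these held 2.11% in replicate 1 and 1.97% in replicate 2. Mir142 was not found and is not analysed here. The leukocyte list shares 3 of these 5 genes with the list of genes linked to red cell formation, and Mir223, which is on both, alone held 1.95% in replicate 1 and 1.82% in replicate 2. Of 7 progenitor genes 1 was higher in replicate 1 and 1 lower, with a summed share of 4.15% in replicate 1 and 4.04% in replicate 2. Of 6 mesenchymal genes 2 were higher in replicate 1 and 2 lower, with a summed share of 2.12% in replicate 1 and 2.04% in replicate 2. The endothelial Mir126a, higher in replicate 1, held 4.48% in replicate 1 and 4.36% in replicate 2. The sums were not tested. The part of these cell types in the ratio of Mir451a was not tested.

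Because Mir486 is also a muscle miRNA, the muscle list stands beside its ratio. Of 8 muscle genes 7 were found in the tables by symbol and 4 were detected, and the summed share of the 7 was 0.171% in replicate 1 and 0.289% in replicate 2. Most of it came from Mir206, specific to skeletal muscle, which was at 1430 CPM in replicate 1 and at 2628 CPM in replicate 2 (log2 ratio -0.86). It was lower in replicate 1, as was Mir486, but by more. Mir133b ran likewise, at 9.40 CPM in replicate 1 and at 24.9 CPM in replicate 2, whereas Mir208b ran the other way, at 82.1 CPM in replicate 1 and at 60.6 CPM in replicate 2. Mir499, the fourth detected, did not pass the exact binomial test and stood at 192 CPM in replicate 1 and at 175 CPM in replicate 2. The detected muscle genes were thus split, with 2 lower and 2 higher in replicate 1. Mir1a-1 and Mir133a-1 had 1 count each over both libraries, and Mir133a-2 had 0, with reads of several mapping places not counted. The part of muscle in the level of Mir486 was not tested.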

How the data were processed

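The authors deposited, for each of 2 libraries, whole-number read counts per miRNA gene, not normalized, for both strands, the gene's own strand and the opposite strand. Per the text deposited beside the tables, assembly mm10 and annotation M4 were used. Which aligner, counter and trimming were used is not given in the sources used here. Reads mapping to several places (29.3% of 14666947 in replicate 1, 31.1% of 8454226 in replicate 2), unmapped reads (23.9%, 21.4%) and reads outside genes (5.40%, 6.23%) entered no total or test. Symbols and positions came from GENCODE M21, which matched 1894 of 1973 identifiers, and the 3 erythroid genes with the same version numbers. edgeR 4.0.16 (R 4.3.3) gave TMM factors and, from an intercept-only fit, the common dispersion, and DESeq2 1.42.0 gave alternative size factors. Exact binomial tests (scipy 1.17.1) covered genes with at least 10 summed counts, with Benjamini-Hochberg adjustment over all 456 and a threshold of 0.05. On simulated counts for replicate 1 against 2, with 445 genes, the test called 0.4% of 250 unchanged genes, 56.25% of 64 changed 1.5-fold, 76.6% of 64 changed 2-fold and 82.1% of 67 changed 3-fold. Between the real libraries, which belong to the same group, it called 38.6% of genes. The simulated rates therefore do not describe how the test behaves on these data. Ratios are replicate 1 over replicate 2. The rule for named genes took the members and genes on their other strand, 2 genes above and below each in level, the 3 most alike in ratio, the 3 least stable other pairs, listed genes, and miRNAs sharing a seed. Mir101a, Mir101b, Mir802, Mir205, Mir3474, Mir122 and muscle genes were named after their values were seen. The members and lists were chosen with earlier results of these data known.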

Additional observations from a re-analysis of the deposited data

How the results depend on the processing

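Mir451a kept its direction and stayed past the threshold under all 8 alternatives of counts, scaling, filter and test, of which the edgeR test takes its error from the same 2 libraries and is no independent support. Changing the minimum count could not alter the ratio of Mir451a. Opposite-strand counts could add only 1 read to it in replicate 1 and 0 in replicate 2. The scaling alternatives were close to TMM, so they could hardly change its call either. Its log2 ratio was 1.08 with total-count scaling, 1.08 with DESeq2 size factors and 1.09 with totals without Mir451a, against 1.09 with TMM. Mir144 and Mir486 kept their direction under the same 8, but with edgeR's exact test and a common dispersion their log2 ratios of -0.18 and -0.18 no longer passed (adjusted p = 1.0 each), and the number of genes called was 5 against 176, since that test takes the spread between the libraries as its error. Divided by precursor length and rescaled, the mean of Mir144 was 10006 and that of Mir486 474 CPM, and with Mir122 left out of the total they were 10120 and 929 CPM. The levels in single libraries, leaving out each replicate in turn, ran from 7777 to 8918 CPM for Mir144, from 8843 to 18658 CPM for Mir451a and from 715 to 818 CPM for Mir486, so replicate 1 decides the place of Mir451a above Mir144, Mir23a and Mir15a. The pair of Mir144 and Mir451a was the least stable of 36 pairs within 1 kb and of 87 pairs at a mean of at least 10 CPM. No paired analysis was possible because there is 1 group. Mir451b had 1 count in all, and the cause of this low count was not tested.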
